A study of Mus musculus with 16 samples.

Results

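The levels of 10 genes of the distal lung epithelium were followed across 4 groups of fetal mouse lungs. They comprised the surfactant protein genes Sftpa1, Sftpb, Sftpc and Sftpd, the lamellar body and surfactant lipid genes Abca3, Lamp3, Lpcat1 and Slc34a2, and the distal tip regulator genes Sox9 and Id2. They were chosen by symbol as genes of this tissue compartment and make up 10 of the 57180 genes counted. Each symbol matched 1 gene identifier. RNA came from whole lungs of fetuses of the inbred strains C57BL/6J (B6) and A/J at embryonic day E14.5, which the design text gives as male. Pregnant dams received either corn oil, the control, or BMS493 in daily oral doses of 3.75 µg per g between E9.5 and collection at E14.5. BMS493 acts on every retinoic acid receptor as an inverse agonist, so it lowers the transcription that these receptors drive. The groups were B6 control, B6 with BMS493, A/J control and A/J with BMS493, with 4 poly(A)-selected libraries in each. Exposure was through the dam, and the labels name no litter, so p-values measure only the spread between these samples, which may be technical or shared within a litter.

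At this age the lung is a branching tree of epithelium inside mesenchyme. The tips of the branches hold dividing progenitor cells that express Sox9 and Id2 and that later give rise to the alveolar type 1 and type 2 cells. Type 2 cells make surfactant, a film of phospholipid and protein that lowers surface tension in the air spaces, and store it in lysosome-related organelles called lamellar bodies. Sftpc transcripts appear in distal epithelium early in lung development, whereas the full set of surfactant genes becomes abundant towards birth. Retinoic acid is needed for the lung to form, and in culture it affects how the distal tips branch and mature.

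Between 15207539 and 24146224 fragments were assigned to genes per library. Multimapping fragments made up 2.81% to 3.29% of each B6 library and 3.62% to 4.06% of each A/J library; per the submitters' processing notes the build was GRCm39 for both strains, which is the genome of C57BL/6J, and its part in strain differences was not tested. Groups were compared with edgeR's quasi-likelihood test, a difference is given as a log2 fold change (log2 of the ratio of levels), and a gene was called where its p, adjusted over all 17276 genes tested, was under 0.05. The retinoic acid targets Cyp26b1, Dhrs3 and Rarb were lower with BMS493 in both strains, with log2 fold changes of -3.68, -1.31 and -1.02 in B6 and -4.24, -2.07 and -1.56 in A/J. The labelled tissue was checked with the 15 epithelial markers fixed for this purpose. All were detected, and their summed level was 1079 to 2062 counts per 1000000 assigned fragments (CPM). The 4 thymus markers stayed under 0.5 CPM in every library. Replicate 2 of the B6 BMS493 group had the highest summed epithelial level, and replicate 3 of that group had a summed mesenchymal level of 15080 CPM against 8238 to 8985 CPM in the other libraries of the group. The retinoic acid target list summed to 186.8 CPM in replicate 3, to 120.8 to 133.2 CPM in the other libraries of that group and to 187.4 to 211.1 CPM in B6 controls, although Cyp26b1, Dhrs3 and Rarb in replicate 3, at 2.47, 9.54 and 6.67 CPM, were each below every B6 control library. Results on the 9 tested genes that rest on this group are given without replicate 2 or 3 where that ends a call.

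The levels of the 10 genes differed widely when compared per length of annotated exon. Sftpc was the most abundant in all 4 groups, at 271.7 ± 42.5 CPM per kb (SD, n = 4) in B6 controls and 78.4 ± 19.99 CPM per kb in A/J controls. In B6 controls Id2 followed at 44.0 CPM per kb, then Lpcat1 at 28.6, Sox9 at 21.0, Sftpb at 10.8, Abca3 at 5.48, Sftpa1 at 2.51, Lamp3 at 1.86 and Slc34a2 at 0.166 CPM per kb. No neighbours in that order overlapped over the 4 libraries, the closest being Sftpa1 at 2.36 to 2.70 and Lamp3 at 1.37 to 2.27 CPM per kb. The order of group means was the same in both A/J groups, but in A/J controls neighbours overlapped at 3 places. There Sftpc (51.7 to 97.3 CPM per kb) reached into the range of Id2 (42.2 to 53.9), Lpcat1 (26.9 to 31.5) into that of Sox9 (23.4 to 28.2), and Sftpa1 (1.13 to 2.56) into that of Lamp3 (0.869 to 1.18). In B6 with BMS493 the mean of Sftpb, 22.4 CPM per kb, was above that of Sox9, 20.5, and the ranges of the pair overlapped.

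**Figure D1:**
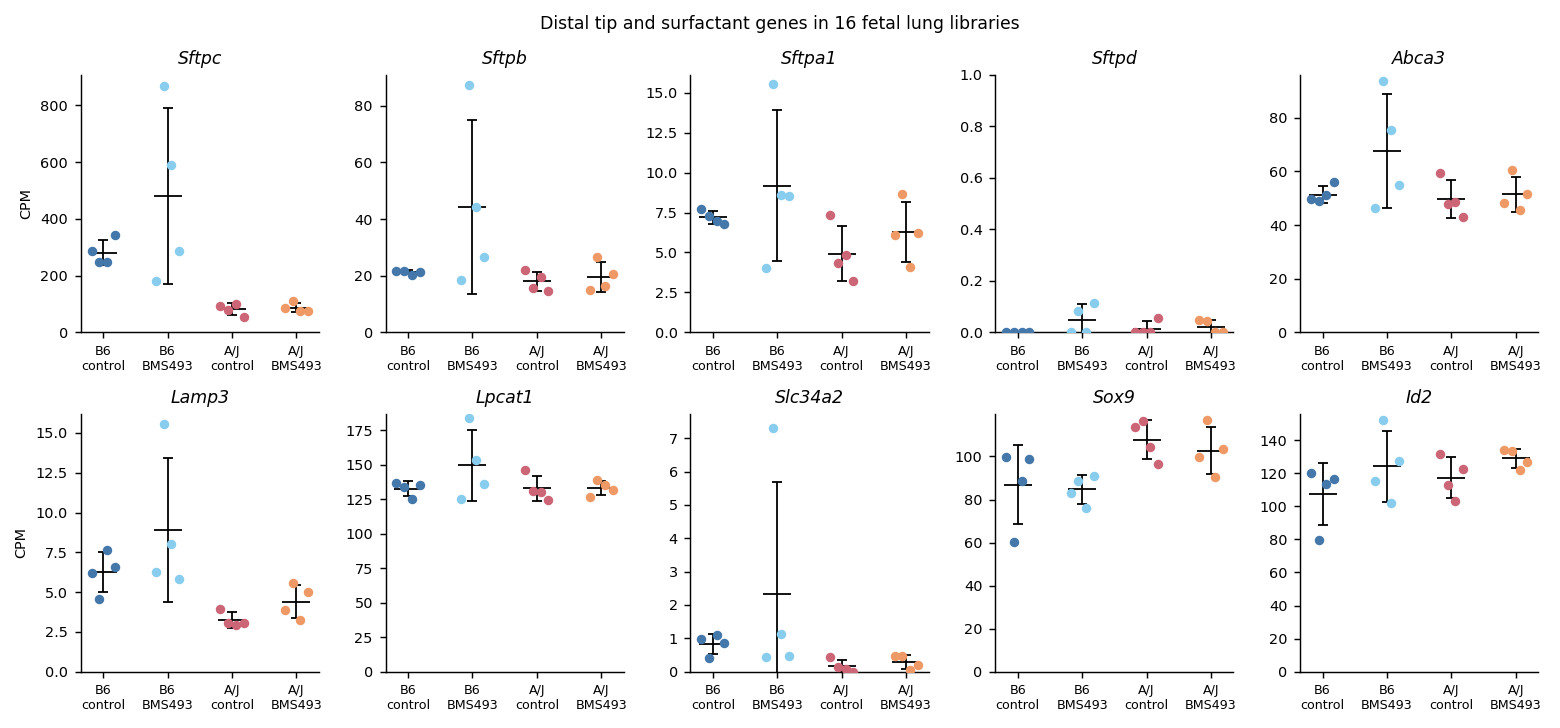
Level of each of the 10 genes in CPM (vertical axis, a scale of its own in each panel) in the 4 groups on the horizontal axis; points are libraries and bars the mean ± SD of 4 libraries, cut at 0 where the SD reaches below it. Sftpc lies at 248 to 341 CPM in B6 controls and at 53.5 to 100.7 CPM in A/J controls, and the B6 BMS493 libraries are the most dispersed for most of the genes.

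Of the 10 genes, Sftpc separated the strains most clearly. It encodes surfactant protein C, a small hydrophobic protein made in the lung almost solely by distal epithelial cells and type 2 cells. The 4 B6 control libraries held 286, 248, 249 and 341 CPM, and the 4 A/J control libraries held 92.4, 77.8, 100.7 and 53.5 CPM. With BMS493 the values were 179, 867, 590 and 288 CPM in B6 and 86.9, 108.9, 76.0 and 75.0 CPM in A/J. Every B6 library was therefore above every A/J library, in control and in BMS493 lungs. The mean was 280.9 ± 43.9 CPM (SD, n = 4) in B6 controls against 81.1 ± 20.7 CPM (SD, n = 4) in A/J controls, a 3.46-fold higher level in B6. The log2 fold change of A/J against B6 was -1.79 (SE 0.41, 95% interval -2.67 to -0.91, adjusted p = 0.00857 in edgeR's quasi-likelihood test). Under BMS493 it was -2.47 (SE 0.41, 95% interval -3.37 to -1.57, adjusted p = 0.000955), or 5.55-fold higher in B6. Left out 1 at a time, no library removed either call, and the log2 fold change stayed between -1.91 and -1.63 in controls and between -2.75 and -2.02 under BMS493. It was -2.02 (adjusted p = 0.00196) without B6 BMS493 replicate 2 and -2.37 (adjusted p = 0.00289) without replicate 3. No 50-base window of Sftpc transcripts occurred in another gene. Lungs were processed whole, so fewer distal cells and less RNA per cell cannot be told apart.

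Sftpb encodes surfactant protein B, which packs phospholipid into lamellar bodies and spreads it at the air surface. B6 controls held 21.5, 21.7, 20.3 and 21.4 CPM and A/J controls 22.0, 15.8, 19.6 and 14.52 CPM. The ranges overlapped, and the log2 fold change was -0.24 (95% interval -1.11 to 0.63, adjusted p = 0.754). Under BMS493 the B6 libraries held 18.4, 87.3, 44.3 and 26.6 CPM and the A/J libraries 14.8, 26.7, 16.2 and 20.4 CPM. Here the log2 fold change was -1.18 (95% interval -2.03 to -0.34, adjusted p = 0.0506), just outside the threshold of 0.05, and it was -0.60 (adjusted p = 0.177) without B6 BMS493 replicate 2 and -1.19 (adjusted p = 0.0804) without replicate 3. It passed at -1.44 (adjusted p = 0.00831) without B6 BMS493 replicate 1, at -1.36 (adjusted p = 0.0320) without replicate 4, at -1.37 (adjusted p = 0.0485) without A/J BMS493 replicate 2, with DESeq2 (-1.18, adjusted p = 0.0138), with a minimum mean of 1 CPM (adjusted p = 0.0459) and in the counts of 1 strand, column 4 of the deposited files (adjusted p = 0.0485).

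The ratio of Sftpc to Sftpb CPM is given as a description, since it was chosen after both results were seen and holds the Sftpc difference itself. It was 11.4 to 15.9 in B6 control libraries and 9.76 to 13.3 in B6 BMS493 libraries. In A/J it was 3.68 to 5.14 in control and 3.67 to 5.86 in BMS493 libraries. The strains did not overlap, although both genes varied widely among the B6 BMS493 libraries, by 4.83 times for Sftpc and 4.75 times for Sftpb. The ratio of Sftpc to Nkx2-1, the lung epithelial transcription factor, was likewise 1.15 to 1.56 in B6 controls and 0.331 to 0.528 in A/J controls. Under BMS493 it was 0.737 to 2.78 in B6 and 0.398 to 0.471 in A/J.

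**Figure D2:**
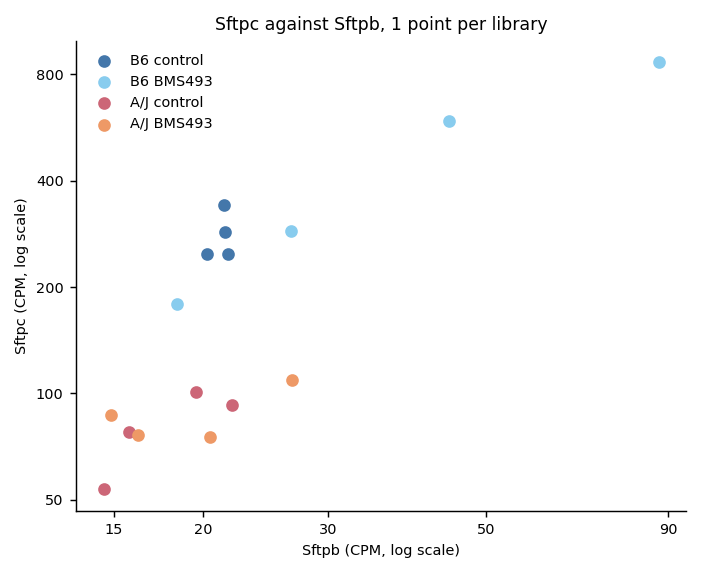
Sftpc (vertical axis) against Sftpb (horizontal axis), both in CPM on log scales, with 1 point per library and a colour for each group. At a given Sftpb level the B6 libraries lie above the A/J libraries, with a ratio of 9.76 or more in B6 and 5.86 or less in A/J.

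Sftpa1 encodes surfactant protein A, a secreted collectin that binds microbes and organises surfactant. It was present at 7.73, 7.31, 6.97 and 6.75 CPM in B6 controls and 7.33, 4.33, 4.83 and 3.23 CPM in A/J controls. With BMS493 it reached 4.04, 15.5, 8.61 and 8.56 CPM in B6 and 6.12, 8.67, 4.09 and 6.25 CPM in A/J. Groups overlapped in every comparison, and the A/J against B6 log2 fold changes of -0.54 in controls (adjusted p = 0.313) and -0.56 under BMS493 (adjusted p = 0.265) did not pass. In controls the value passed with a fit to those groups alone (-0.54, adjusted p = 0.0366). The value under BMS493 was -0.81 (adjusted p = 0.0261) without B6 BMS493 replicate 1 and -0.16 (adjusted p = 0.774) without replicate 2. Sftpd encodes surfactant protein D, the other surfactant collectin. Only 7 Sftpd counts were found in all, in 5 of 16 libraries, and the gene was too sparse to test. The B6 control libraries held none, which over the group allows up to 0.0379 CPM, a limit of 3 counts that covers counting error only.

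Stretches of the promoters of Sftpa1, Sftpb, Lamp3 and Slc34a2 are shown to place the genes of very different level beside their proximal sequence. They are the 250 bases before the annotated start, from RefSeq on GRCm38.p6, written in the direction of transcription, and 7 of the 10 genes matched the table. Capitals mark matches on either strand to CTCAAG, a core bound by NKX2-1, to TGTTTNC, a core bound by FOXA factors, or to AGGTCA, the hexamer bound by retinoid receptors. None of the matches overlapped.
Sftpa1 (chr14:41131538-41131787, + strand): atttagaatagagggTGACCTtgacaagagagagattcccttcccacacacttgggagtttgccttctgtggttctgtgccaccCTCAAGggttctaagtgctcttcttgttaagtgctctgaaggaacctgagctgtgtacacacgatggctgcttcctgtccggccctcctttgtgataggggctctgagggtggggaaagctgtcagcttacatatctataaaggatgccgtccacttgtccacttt
Sftpb (chr6:72304360-72304609, + strand): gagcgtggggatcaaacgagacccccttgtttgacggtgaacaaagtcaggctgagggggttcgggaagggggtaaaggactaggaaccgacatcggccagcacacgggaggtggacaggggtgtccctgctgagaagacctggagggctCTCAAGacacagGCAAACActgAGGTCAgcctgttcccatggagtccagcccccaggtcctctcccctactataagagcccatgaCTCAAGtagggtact
Lamp3 (chr16:19706366-19706615, - strand): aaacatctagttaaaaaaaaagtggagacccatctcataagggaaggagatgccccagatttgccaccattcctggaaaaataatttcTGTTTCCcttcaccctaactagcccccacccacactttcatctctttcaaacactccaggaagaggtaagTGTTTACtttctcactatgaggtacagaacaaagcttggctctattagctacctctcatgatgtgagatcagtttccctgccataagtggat
Slc34a2 (chr5:53049103-53049352, + strand): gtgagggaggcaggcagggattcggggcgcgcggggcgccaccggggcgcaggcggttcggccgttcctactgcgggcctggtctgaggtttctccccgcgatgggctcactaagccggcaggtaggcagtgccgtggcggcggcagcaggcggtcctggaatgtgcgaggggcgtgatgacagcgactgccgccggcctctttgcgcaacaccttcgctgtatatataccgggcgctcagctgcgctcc
Sftpb held the NKX2-1 core at 2 places, starting 100 and 15 bases before the start, the FOXA core at -88 and the retinoid receptor hexamer at -78. Sftpa1 held the NKX2-1 core at -166 and the hexamer at -235, and Lamp3 held the FOXA core at -162 and -92. The windows of Abca3, Lpcat1, Slc34a2 and Id2 held no match. Among 32817 promoter windows of the same length, 13.3% held the NKX2-1 core, 17.8% the FOXA core and 14.03% the hexamer, so each is common by itself. The sequences are of the reference strain C57BL/6J, and A/J sequence was not used here. A match is a description of these letters and shows neither binding nor a response to BMS493.

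Among the lamellar body and lipid genes, Lamp3 was the one called lower in A/J in both treatments. Lamp3 encodes a membrane glycoprotein of lamellar bodies and lysosomes and is a marker of type 2 cells. B6 controls held 6.19, 4.59, 7.62 and 6.56 CPM and A/J controls 3.95, 3.03, 2.91 and 3.06 CPM, with no overlap. The means were 6.24 ± 1.26 and 3.24 ± 0.480 CPM (SD, n = 4 each), and the log2 fold change was -0.94 (SE 0.27, adjusted p = 0.0211). Under BMS493 the B6 libraries held 6.26, 15.6, 8.01 and 5.80 CPM and the A/J libraries 3.85, 5.54, 3.26 and 4.99 CPM, again without overlap. The log2 fold change there was -1.03 (SE 0.26, adjusted p = 0.00729), with -0.60 (adjusted p = 0.0448) without B6 BMS493 replicate 2 and -1.08 (adjusted p = 0.0153) without replicate 3. The call in controls was lost without A/J control replicate 2, 3 or 4 or B6 control replicate 3, with adjusted p between 0.0566 and 0.0684. Of the 50-base windows of Lamp3 transcripts, 5.11% occurred in another gene.

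Slc34a2 encodes the sodium-phosphate cotransporter that takes up phosphate released as surfactant phospholipid is recycled. It was near the limit of detection, with 19, 10, 22 and 13 counts in B6 controls and 9, 3, 2 and 0 counts in A/J controls. With BMS493 there were 9, 173, 17 and 8 counts in B6 and 10, 11, 1 and 4 counts in A/J. The log2 fold change of A/J against B6 was -2.26 in controls (95% interval -4.60 to 0.08, adjusted p = 0.188). Under BMS493 it was -2.98 (95% interval -4.93 to -1.03, adjusted p = 0.0323), with overlapping ranges. That call depended on B6 BMS493 replicate 2, without which the value was -1.13 (adjusted p = 0.272), and it was -3.20 (adjusted p = 0.0381) without replicate 3. It was also lost without each A/J BMS493 replicate in turn, at adjusted p of 0.0501 to 0.0885, and without the filter on low counts (adjusted p = 0.0868). Slc34a2 passed that filter through B6 libraries only, so its entry into the strain tests depended on the strain where it was higher. With a minimum mean of 1 CPM it was not tested. In controls the same omission of B6 BMS493 replicate 2, which enters the shared estimate of spread, left the value at -2.26 and brought the adjusted p to 0.0128.

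Abca3 and Lpcat1 did not pass the test between the strains in either treatment. Abca3 encodes the transporter that moves phospholipid into lamellar bodies. Its control values were 49.6, 48.9, 51.1 and 55.9 CPM in B6 and 59.6, 48.1, 48.5 and 42.9 CPM in A/J, and the interval of the log2 difference ran from -0.43 to 0.34 (adjusted p = 0.905). Under BMS493 the values were 46.2, 93.6, 75.6 and 55.1 CPM in B6 and 48.1, 60.5, 45.8 and 51.5 CPM in A/J (log2 fold change -0.39, 95% interval -0.77 to -0.01, adjusted p = 0.144). Without B6 BMS493 replicate 1 the value was -0.54 and passed (adjusted p = 0.0128), and without replicate 2 it was -0.19 (adjusted p = 0.432). Abca3 shares 9.75% of its exon bases with the antisense gene D330041H03Rik, and the counts used here were 0.763 of the sum of the stranded columns, so its level may be understated, and 10.1% of its 50-base windows occur in another gene. Lpcat1 encodes the acyltransferase that makes the main saturated phosphatidylcholine of surfactant, and many other tissues express it too. Its control levels were 132.6 ± 5.21 CPM in B6 and 132.9 ± 9.09 CPM in A/J (SD, n = 4 each), and the interval of the log2 difference was -0.17 to 0.18 (adjusted p = 0.981). Under BMS493 the log2 fold change was -0.17 (adjusted p = 0.165), with -0.24 (adjusted p = 0.0259) without B6 BMS493 replicate 1 and -0.05 (adjusted p = 0.685) without replicate 2.

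Sox9 and Id2, the regulators of the tip progenitors, did not share the lower A/J levels of Sftpc and Lamp3. Sox9 encodes a transcription factor of the tip, which is also made by airway cartilage precursors. Its control values were 99.7, 60.3, 88.5 and 98.7 CPM in B6 and 113.8, 116.6, 104.3 and 96.7 CPM in A/J, and 3 of the 4 A/J libraries were above every B6 library. The log2 fold change of A/J against B6 was 0.32 (SE 0.12, 95% interval 0.05 to 0.58, adjusted p = 0.0951). Under BMS493 the values were 83.0, 88.5, 76.2 and 91.1 CPM in B6 and 99.9, 117.0, 90.6 and 103.6 CPM in A/J, with a log2 fold change of 0.28 (adjusted p = 0.134). Without B6 control replicate 2, which enters the shared estimate of spread, this value was 0.28 too and passed (adjusted p = 0.0146). B6 control replicate 2 was the lowest library, and without it the control difference was 0.17 (adjusted p = 0.203), while on all libraries it passed with DESeq2 (adjusted p = 0.0443) and without the filter on low counts (adjusted p = 0.00380). Under BMS493 it passed without that filter (adjusted p = 0.00956) and with a fit to the compared groups alone (adjusted p = 0.0360). The summed level of the 12 cartilage markers, a list that does not hold Sox9, was 302.6 to 319.6 CPM in B6 controls and 241.1 to 284.2 CPM in A/J controls, and its part in the Sox9 values was not tested.

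Id2 encodes an inhibitor of basic helix-loop-helix transcription factors and is also expressed outside the epithelium. Its values were 120, 79.8, 113 and 116 CPM in B6 controls, 115, 152, 102 and 127 CPM in B6 with BMS493, 134, 133, 122 and 127 CPM in A/J with BMS493 and 132, 113, 103 and 122 CPM in A/J controls. All 4 groups overlapped except A/J with BMS493 and B6 controls. The A/J against B6 log2 fold changes were 0.13 (95% interval -0.13 to 0.40, adjusted p = 0.540) in controls and 0.05 (95% interval -0.21 to 0.32, adjusted p = 0.821) under BMS493. They were 0.01 in controls without B6 control replicate 2, and under BMS493 0.17 without B6 BMS493 replicate 2 and -0.03 without replicate 3, none of which passed. The CPM ratio of Sftpc to Sox9, chosen after both results were seen and given as a description, was 2.81 to 4.12 in B6 controls and 0.553 to 0.965 in A/J controls.

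In all, 2 of the 9 tested genes were called between the strains in controls, where 16.9% of all 17276 genes tested were called. Both were lower in A/J, as were 9.84% of all genes. Under BMS493 3 of the 9 were called, where 19.95% of all genes were, and all 3 were lower in A/J, as were 12.02% of all genes. One of the 3, Slc34a2, passed the filter on low counts through B6 libraries only. Its call was lost without that filter and without B6 BMS493 replicate 2. DESeq2 called 3 and 4 of the 9. The shares of all genes given here and below are edgeR's, so counts called by DESeq2 stand without a share of their own. The median log2 fold change of the 9 was -0.24 in controls and -0.56 under BMS493, beside 0.01 and 0.00 over all genes. The 2 genes whose strains did not overlap, Sftpc and Lamp3, were the same in control and in BMS493 lungs, and 24.3% and 19.5% of all genes did not overlap in these comparisons. These strain comparisons use different libraries, but they share the strains and the model.

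**Figure D3:**
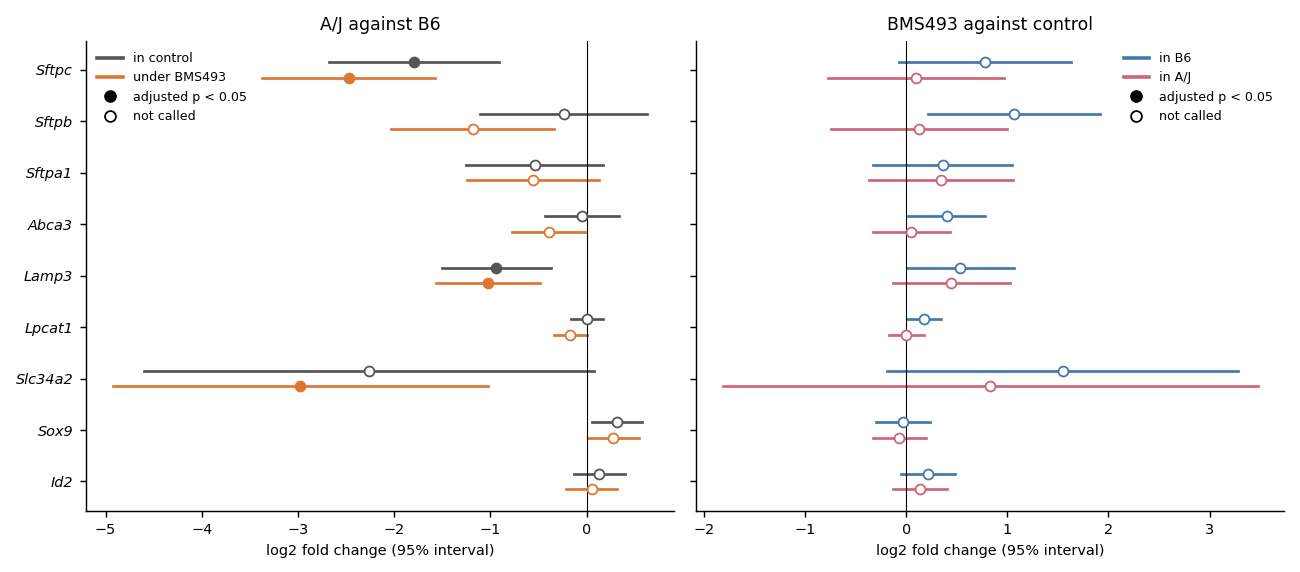
Log2 fold change (horizontal axis) with its 95% interval for each tested gene (vertical axis), for A/J against B6 in control and BMS493 lungs on the left and for BMS493 against control in B6 and A/J on the right; filled points passed an adjusted p of 0.05. Filled points appear only on the left, for Sftpc and Lamp3 in both treatments and for Slc34a2 under BMS493.

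The treatment itself moved none of the 9 genes past the threshold in either strain. In B6, 0 of 9 were called by edgeR and by DESeq2, where 0.423% of all genes were called by edgeR, and 4 had an unadjusted p under 0.05, beside 9.11% of all genes. In A/J, 0 of 9 were called by either tool, where 0.486% of all genes were called, and 0 had an unadjusted p under 0.05, beside 6.23% of all genes. No gene of the 9 had groups without overlap in either strain, against 4.71% and 4.87% of all genes. Of the 9, 8 had a positive log2 fold change in B6 and 8 in A/J, Sox9 being the exception in both at -0.03 and -0.07. With libraries scaled to epithelial markers 6 and 6 were positive, on a scale that moved the median of all genes by -0.21 and -0.06. Relative to the shifted median, Sox9 was again the exception in both, at -0.04 and -0.07. The number positive in A/J was 7 with RLE scaling, DESeq2 or a replicate block. It was 6 of 8 in the stranded column 4 and with a minimum mean of 1 CPM. The medians were 0.40 in B6 and 0.12 in A/J, beside 0.01 and 0.00 over all genes.

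The point estimates in B6 were large for several surfactant genes, and their intervals were wide. Sftpb had a mean of 21.2 ± 0.642 CPM in controls and 44.2 ± 30.7 CPM with BMS493 (SD, n = 4 each), a log2 fold change of 1.07 (95% interval 0.22 to 1.91, adjusted p = 0.415). Sftpc had 280.9 ± 43.9 and 481.2 ± 310.5 CPM, a log2 fold change of 0.78 (95% interval -0.07 to 1.63, adjusted p = 0.578). Values for the rest were 1.55 for Slc34a2, 0.53 for Lamp3, 0.40 for Abca3, 0.36 for Sftpa1, 0.21 for Id2 and 0.17 for Lpcat1. Without B6 BMS493 replicate 2 the log2 fold changes were 0.48 for Sftpb, 0.33 for Sftpc, 0.10 for Lamp3, 0.20 for Abca3, -0.04 for Sftpa1 and -0.30 for Slc34a2. Without replicate 1 they were 1.33, 1.06, 0.68, 0.55, 0.61 and 1.89, with the lowest adjusted p at 0.0958, for Abca3. Without replicate 3, which stood apart in mesenchymal markers, Sftpb was at 1.07 and Sftpc at 0.67.

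In A/J the point estimates ran from -0.07 for Sox9 to 0.83 for Slc34a2 (95% interval -1.81 to 3.48). Lamp3 was at 0.44 and Sftpa1 at 0.35, beside 0.53 and 0.36 in B6. With each library left out, Slc34a2 in A/J ran from 0.48 to 1.85, the highest without A/J control replicate 1, and Sftpa1 from 0.15, without A/J BMS493 replicate 2, to 0.60, without A/J control replicate 1. Sftpc was at 81.1 ± 20.7 CPM in controls and 86.7 ± 15.8 CPM with BMS493 (SD, n = 4 each), a log2 fold change of 0.10 (95% interval -0.78 to 0.97). Sftpb had a log2 fold change of 0.12 and Abca3 of 0.05. For Lpcat1 the interval was -0.17 to 0.17. The difference between the strains in the effect of BMS493, tested as an interaction, was called for 0 of 9 genes by either tool, where 0.00579% of all genes were called, and no gene of the 9 had an unadjusted p under 0.05. All 9 interaction values were below 0, from -0.94 for Sftpb to -0.01 for Sftpa1, but 4 of 9 were below 0 with libraries scaled to epithelial markers and 5 of 9 without B6 BMS493 replicate 2. The scaling moved the median of all genes by 0.15 in this comparison. Relative to the shifted median, the genes not below 0 were Sftpa1 at 0.09 and Lamp3 at 0.01. Averaged over the strains, 0 of 9 were called by either tool, where 1.37% of all genes were, and 1 had an unadjusted p under 0.05, beside 10.8% of all genes. That gene was Lamp3, with a log2 fold change of 0.49 (adjusted p = 0.298).

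The feature of the B6 BMS493 group was its spread. The coefficient of variation of Sftpc was 64.5% there, beside 15.6% in B6 controls, and in A/J it was 25.5% and 18.2% in control and BMS493 lungs. For Sftpb it was 69.6% beside 3.03% in B6 controls, and for Sftpa1 51.6% beside 5.94%. Sox9 went the other way, at 7.82% beside 21.2%. Over all genes the median SD of log2 CPM was 0.204 in B6 with BMS493 and 0.119 to 0.151 in the other groups. Pooled over the 4 groups, the SD of log2 CPM within groups exceeded that of 85.8% to 99.8% of genes of similar level, the lowest share being that of Lpcat1 and the highest shares those of Sftpb and Sftpc. The difference in spread between groups was not tested.

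In 4 of the 16 libraries the 9 genes all deviated to the same side of their group mean. B6 BMS493 replicate 2 was above its group mean in 9 of 9 genes, with a median deviation of 0.90 on the log2 scale. Replicate 1 was below its group mean in 9 of 9, at a median of -0.50. In A/J, control replicate 1 and BMS493 replicate 2 were above their group means in 9 of 9 genes, by medians of 0.27 and 0.35. Other epithelial genes were also highest in B6 BMS493 replicate 2. The 15 epithelial markers summed to 2062 CPM there and to 1462, 1656 and 1480 CPM in replicates 1, 3 and 4, and the 13 type 1 cell markers to 1365 CPM there and to 951, 1046 and 905 CPM in replicates 1, 3 and 4. Replicate 1 was close to replicate 4 in both sums. In A/J controls replicate 1 had an epithelial sum of 1219 CPM, between the 1079 and 1317 CPM of replicates 4 and 3. In A/J BMS493 lungs replicate 2 had the highest sums, 1362 CPM of epithelial markers against 1200 to 1265 CPM and 913 CPM of type 1 cell markers against 746 to 774 CPM. The part of epithelial content in these deviations was not tested.

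**Figure D4:**
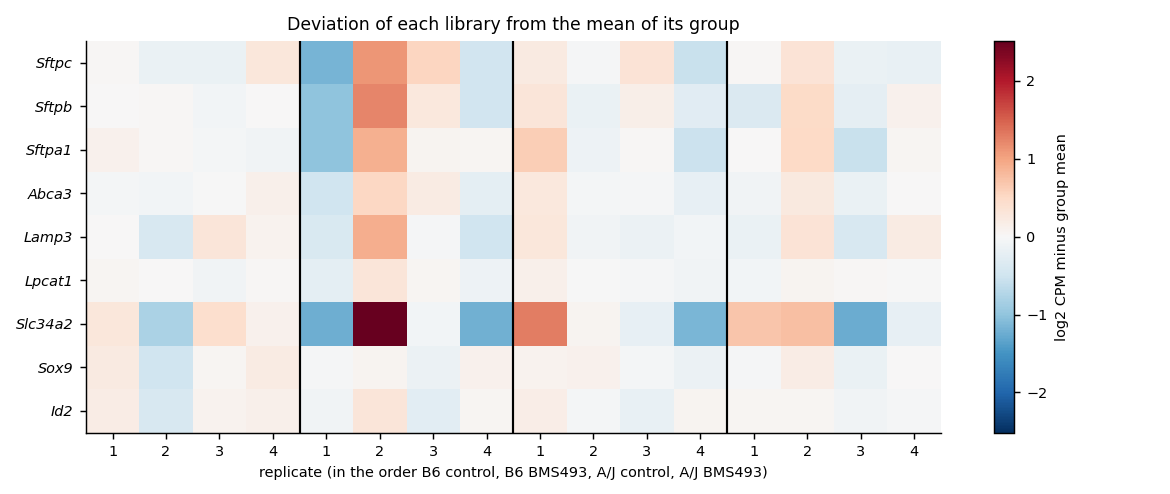
Log2 CPM of each tested gene (rows) minus its group mean in each of the 16 libraries (columns, by group), with red above and blue below the mean. B6 BMS493 replicate 2 is above and replicate 1 below the mean in all 9 rows.

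Within groups, 5 surfactant genes moved together with Sftpc, and the correlations of the tip regulators with it did not pass. After each group mean was subtracted, Pearson's r with Sftpc over the 16 libraries was 0.93 for Abca3 (permutation p = 0.0014, adjusted over 8 relations 0.0092), with Spearman's rho of 0.81 (permutation p = 0.0140). For Sftpb r was 0.91 (permutation p adjusted 0.0092), for Lpcat1 0.89 (0.0124), for Sftpa1 0.82 (0.0124) and for Slc34a2 0.79 (0.0124). Lamp3 reached 0.69 (permutation p adjusted 0.0520), and it passed in 3 of 16 fits with 1 library left out, those without B6 control replicate 3, A/J control replicate 3 or A/J BMS493 replicate 4 (permutation p adjusted 0.0302 to 0.0362). Id2 was at 0.26 and Sox9 at 0.21, with adjusted permutation p of 0.522 and 0.328. Without the libraries farthest from the median of Sftpc, B6 BMS493 replicates 1 and 2, r was 0.83 for Abca3, 0.75 for Sftpb, 0.69 for Lpcat1, 0.63 for Slc34a2, 0.54 for Sftpa1, 0.42 for Lamp3, 0.23 for Sox9 and -0.13 for Id2. The number passing was 3 to 6 with each library left out, the lowest without B6 BMS493 replicate 1. The median r of all other genes with Sftpc was -0.01, and 0.0811% of them reached the r of Abca3. Sox9 and Id2 had an r of 0.75 with each other (permutation p = 0.0104, rho 0.62, p = 0.0250), which was 0.55 without B6 control replicate 2 and A/J BMS493 replicate 3.

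Genes whose deviations were most like those of Sftpc were sought among 14370 genes with a mean of at least 1 CPM, over the same 16 libraries. The 5 nearest were Ccdc85a at r = 0.97, Gsn, which encodes the actin-severing protein gelsolin, at 0.96, Ager, a marker of type 1 cells, at 0.96, Plac9a at 0.96 and Igfbp7, which encodes a secreted protein that binds insulin-like growth factors, at 0.95. Ager was at 28.0 ± 1.98 CPM in B6 controls and 15.6 ± 3.51 CPM in A/J controls, and at 44.3 ± 23.0 and 17.4 ± 2.51 CPM under BMS493 (SD, n = 4 each). For Sox9 the 5 nearest were Epha2, a receptor for ephrins, at 0.85, Trib1 at 0.84, Susd2 at 0.84, Sacm1l at 0.84 and Gm42928 at 0.83. No gene was in both sets of 5.

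The strain difference was also read with libraries scaled to the 15 epithelial markers instead of all genes, an alternative chosen after seeing the data. In controls 3 of the 15 markers were called, where 16.9% of all genes were, all lower in A/J, namely Krt18 at -0.81, Krt8 at -0.51 (29.7% of its 50-base windows occur in another gene) and Epcam at -0.24, and under BMS493 8 of 15 were called, where 19.95% of all genes were, all lower. The 8 were 10, 7, 11 and 13 without B6 BMS493 replicate 1, 2, 3 and 4, where 22.1%, 14.6%, 19.1% and 19.3% of all genes were called. Their sum was 1415 to 1452 CPM in B6 controls and 1079 to 1317 CPM in A/J controls. This scaling moved the median of all genes by 0.27 in controls and 0.42 under BMS493, and values are given on the new scale. Sftpc was lower in A/J on it too, at -1.54 (adjusted p = 0.00338) and -1.95 (adjusted p = 0.000349), as was Lamp3, at -0.68 (adjusted p = 0.0184) and -0.54 (adjusted p = 0.0243). On this scale 29.7% of all genes were called in controls and 58.5% under BMS493, 25.6% and 54.8% of all genes being higher in A/J. Sox9 then passed the test as higher in A/J, at 0.58 (adjusted p = 0.00185) and 0.69 (adjusted p = 0.000129), and so did Id2, at 0.41 (adjusted p = 0.0241) and 0.49 (adjusted p = 0.00308). Relative to the shifted median of all genes, these differences were -1.82 and -2.37 for Sftpc, -0.95 and -0.96 for Lamp3, 0.30 and 0.27 for Sox9 and 0.13 and 0.07 for Id2.

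Other genes of the surfactant and type 2 cell program were compared from a list of 25, of which 22 could be tested. Lyz1, Chil1 and S100g, genes of mature type 2 cells and their secretions, were under 0.5 CPM in every library. In controls A/J was called higher for 1 and lower for 5, with a median of -0.36, and under BMS493 2 were higher and 11 lower, with a median of -0.50; over all genes 16.9% and 19.95% were called, 9.84% and 12.02% as lower. With the epithelial scaling 8 were higher and 5 lower in controls and 8 higher and 8 lower under BMS493, with medians of -0.11 and -0.08. Relative to the median of all genes on that scale, these medians were -0.39 and -0.50. There 29.7% and 58.5% of all genes were called, 25.6% and 54.8% as higher and 4.09% and 3.76% as lower. Without B6 BMS493 replicate 2 the counts under BMS493 were 1 higher and 8 lower, where 14.6% of all genes were called. Hc, which encodes complement C5, was at -1.21 (adjusted p = 0.0350) in controls and -2.53 (adjusted p = 0.000335) under BMS493. Lgi3 was at -0.64 and -0.95, and Cxcl15, which encodes a lung chemokine, at -0.43 in controls. Adgrf5, a receptor that limits surfactant pool size, was at -0.58 and Srebf1, a regulator of lipid synthesis, at -0.25 under BMS493. The gene called higher in controls was the fatty acid desaturase gene Scd1, at 0.69 (adjusted p = 0.000305). Under BMS493 Napsa and Ctsh, proteases that cut the precursors of surfactant proteins B and C, were at -1.90 (adjusted p = 0.0169) and -1.19 (adjusted p = 0.0304), but at -1.04 (adjusted p = 0.125) and -0.65 (adjusted p = 0.0514) without B6 BMS493 replicate 2; this pair was chosen after its values were seen, and 15.1% of the 50-base windows of Napsa occur in another gene. With BMS493 against control, edgeR called 0 of 22 in B6 and 0 of 22 in A/J. An unadjusted p under 0.05 was found for 2 and 4 of them, beside 9.11% and 6.23% of all genes, and DESeq2 called 0 and 1.

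The distal tip list, 18 genes beside Sox9 and Id2, held genes called in both directions between the strains. In controls A/J was called higher for 4 and lower for 2, with a median of 0.12, and under BMS493 2 were higher and 3 lower, with a median of -0.02, beside the same 16.9% and 19.95% over all genes. With each B6 BMS493 library left out in turn, 1 to 4 were higher and 3 to 5 lower under BMS493, the lowest number higher being without replicate 2 or 3 and the highest without replicate 1. Of all genes 22.1%, 14.6%, 19.1% and 19.3% were called without replicate 1, 2, 3 and 4. With the epithelial scaling 10 were higher and 2 lower in controls and 11 higher and 3 lower under BMS493. On that scale 25.6% and 54.8% of all genes were higher and 4.09% and 3.76% lower. Hmga2, a chromatin protein of progenitor cells, was higher in A/J at 1.09 (adjusted p = 0.00192) and 0.80 (adjusted p = 0.0127), and Etv4, a factor induced by fibroblast growth factor signals in the tip, at 0.38 (adjusted p = 0.0158) in controls. Clu, which encodes the chaperone clusterin, was lower at -1.08 (adjusted p = 0.00662) and -1.62 (adjusted p = 0.000334), and Cpm, which encodes a membrane carboxypeptidase, at -0.79 under BMS493. Hmga1 was at -1.11 and -1.09, but 55.0% of its 50-base windows occur in another gene, so its counts are uncertain. With BMS493 against control, edgeR called 0 of 18 in each strain, 4 and 3 had an unadjusted p under 0.05, beside 9.11% and 6.23% of all genes, and DESeq2 called 0 and 2.

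**Figure D5:**
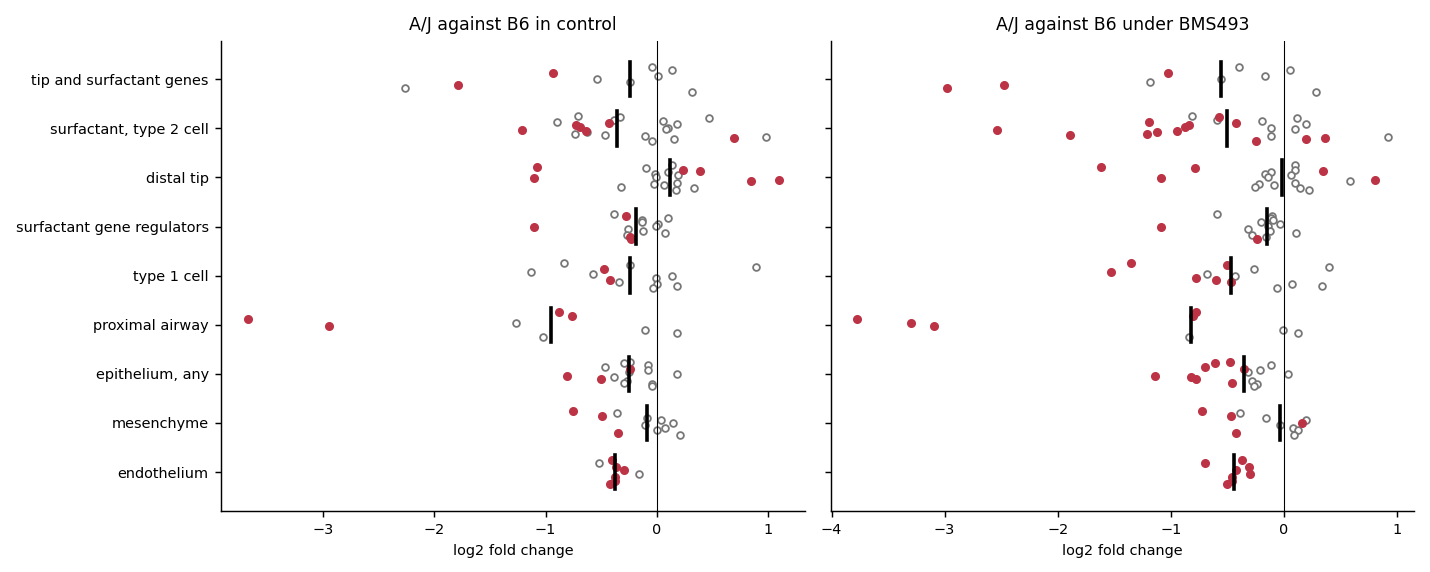
Log2 fold change of A/J against B6 (horizontal axis) of each tested gene in the lists named on the vertical axis, in control and in BMS493 lungs; filled red points passed an adjusted p of 0.05 and the bar is the median of the list. The surfactant and type 2 cell genes have medians of -0.36 and -0.50, and the distal tip genes medians of 0.12 and -0.02.

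Of 14 transcription factors that act on surfactant genes, 0 were higher and 4 lower in A/J controls, where 9.84% of all genes were lower, with Nr3c1, the glucocorticoid receptor gene, at -0.24, Stat3 at -0.23 and Cebpd at -0.28, beside Hmga1. Under BMS493, where 12.02% of all genes were lower, 0 were higher and 2 lower, Hmga1 and Stat3, the latter at -0.24 and at -0.17 (adjusted p = 0.150) without B6 BMS493 replicate 2. The count lower under BMS493 was 4, 1, 4 and 3 without B6 BMS493 replicate 1, 2, 3 and 4. In these fits 22.1%, 14.6%, 19.1% and 19.3% of all genes were called. With the epithelial scaling 2 were higher and 1 lower in controls and 6 higher and 1 lower under BMS493. Beside these, 25.6% and 54.8% of all genes were higher and 4.09% and 3.76% lower. Nkx2-1, which was chosen after its values were seen, was at 213.1 ± 10.2 CPM in B6 controls and 176.8 ± 13.6 CPM in A/J controls (SD, n = 4 each), a log2 fold change of -0.27 (adjusted p = 0.0816), and at -0.29 (adjusted p = 0.0553) under BMS493. With BMS493 against control, edgeR called 0 of 14 in each strain, 0 and 4 had an unadjusted p under 0.05, beside the same shares of all genes, and DESeq2 called 0 and 1.

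Markers of other cells were counted in the same way, beside the 16.9% and 19.95% of all genes called (9.84% and 12.02% lower in A/J), and several of the shares lie near those. On the epithelial scale 25.6% of all genes were higher and 4.09% lower in controls, and 54.8% higher and 3.76% lower under BMS493. The mesenchymal counts on that scale lie near the shares higher. Without B6 BMS493 replicate 1, 2, 3 and 4 the share of all genes called under BMS493 was 22.1%, 14.6%, 19.1% and 19.3%. Of 13 type 1 cell genes, 2 were lower in A/J controls and 6 under BMS493, among them Igfbp2 at -0.43 and -0.60 and Ager at -1.36 under BMS493. With the epithelial scaling 2 were higher and 1 lower in controls and 3 higher and 2 lower under BMS493, and without B6 BMS493 replicate 2 the number lower was 4. Of 8 proximal airway genes, 4 and 5 were lower, led by Cyp2f2 at -3.67 and Scgb3a2 at -2.94 in controls, while the club cell marker Scgb1a1 was under 0.5 CPM everywhere. Of 8 endothelial genes, 6 and 8 were lower in A/J, and their sum was 1254 to 1370 CPM in B6 controls and 904 to 1089 CPM in A/J controls, while 0 were called with the epithelial scaling. Of 11 mesenchymal genes, 0 were higher and 3 lower in controls and 1 higher and 3 lower under BMS493, which the epithelial scaling turned to 3 higher and 1 lower and to 6 higher and 0 lower. Without B6 BMS493 replicate 2 or 4, 0 mesenchymal genes were higher under BMS493. Of 9 cartilage genes, 1 was higher and 2 were lower in controls and 0 higher and 3 lower under BMS493, or 1 higher and 2 lower and 1 higher and 1 lower with the epithelial scaling. Of 6 macrophage and dendritic cell genes, 2 and 3 were higher and 0 lower, while Flt3, Ccr7, Itgax and Cd209a were under 0.5 CPM everywhere. In the mesothelial list 1 gene of 6 was higher and 1 lower in controls, and 2 higher and 3 lower under BMS493, where 1 was higher without B6 BMS493 replicate 2 or 3. Of 6 erythroid, 2 liver and 4 heart genes, 0, 1 and 1 were lower in controls and 0 in each under BMS493. With the epithelial scaling 0 proximal airway genes were higher and 5 lower in controls, and 1 was higher and 3 lower under BMS493. On that scale 2 and 4 macrophage and dendritic cell genes were higher and 0 lower. Of the mesothelial genes 3 were higher and 1 lower in controls, and 3 higher and 3 lower under BMS493. Beside these counts, 54.8% of all genes were higher under BMS493 on that scale. The part of these other cells in the strain differences of Sftpc and Lamp3 was not tested.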

How the data were processed

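RNA was measured in whole fetal lungs in 16 libraries, 4 in each of 4 groups, grouped by the strain and treatment in the labels. The authors deposited raw counts of 57180 genes for each library. A further 4 lines name no gene and took 23.1% to 28.3% of the fragments, and they were left out of library sizes. FastQC, cutadapt, STAR and the GRCm39 genome are named in the submitters' processing notes; their versions are not given in the sources used here. The deposited counts have 1 column without regard to strand and 1 per strand, as STAR writes them. Column 3 held 51.0% to 52.0% of the stranded pair, so column 2 was used, which does not use strand and in which ambiguous fragments stand in a line of their own, per the names of the lines, and not with a gene.

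Symbols came from GENCODE M21, matched on gene identifier for 51884 genes that hold 98.9% of the counts. M21 is on another build than the files, so no coordinates of it are given. Genes were filtered with filterByExpr (17276 kept, 39904 removed), scaled with TMM and fitted with the robust quasi-likelihood model of edgeR 4.0.16 in R 4.3.3, with 12 residual degrees of freedom and 1 coefficient per group. All tests were two-sided, adjusted by the Benjamini-Hochberg method over all genes tested, and called at an adjusted p under 0.05. Of the 10 genes 9 passed the filter and Sftpd did not. CPM used TMM sizes, and log2 values a prior count of 2. Standard errors are the log2 fold change over the root of the F statistic, and 95% intervals use the same model. Counting limits cover counting error only. Correlations used group-centred log2 CPM and 100000 permutations of libraries within groups (two-sided). Python 3.11.15 with pandas 2.3.3 and scipy 1.17.1 made the tables.

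The genes and lists were chosen with earlier results of these data known. All 10 genes are named whatever their result, and of each list up to 4 called genes with the smallest adjusted p per strain comparison. Alternatives were DESeq2 1.42.0 (Wald test), RLE in place of TMM, all genes unfiltered, a minimum mean of 1 CPM, a fit to the compared groups alone, a replicate block, the library set (numbers in the labels) as a term, a prior count of 0.5, each stranded column, scaling to the epithelial markers (chosen after seeing the data) and leaving out each library. The pipeline was tested on simulated data for BMS493 against control in B6 with 16917 genes, where 85% of genes changed by 0.75 and 100% of those changed by 1.5 (log2) were called, and 7.5% of calls were unchanged genes. The simulation gave every gene the same relative spread in all groups, and no gene of low count was changed. It did not hold the wide spread of the surfactant genes in B6 with BMS493, so these shares do not apply to them.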

Additional observations from a re-analysis of the deposited data

Results flagged for a closer look

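In each group of 4 libraries, a gene was set aside for a closer look where its highest or lowest library was separated from the nearest other by a share of the group's range above Dixon's 95% critical value for 4 libraries, which chance alone gives in about 1 in 20 groups. This was met in 4 of 39 groups tested. Slc34a2 in B6 with BMS493 had 7.31 CPM in replicate 2 and 0.454 to 1.13 CPM in the others, a gap of 0.901 of the range. Lamp3 in A/J controls had 3.95 CPM in replicate 1 and 2.91 to 3.06 CPM in the others, a gap of 0.857. Id2 in B6 controls had 79.8 CPM in replicate 2 and 113.2 to 120.1 CPM in the others, a gap of 0.8294. Sftpd in A/J controls had a single count in replicate 4 and none in the others, which gives a gap of 1.0 by construction. For none of the 9 genes tested did the difference between strains in the response to BMS493 pass edgeR's test after adjustment.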

How the results depend on the processing

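The number of genes called between the strains in controls, 2 as reported, was 1 in the stranded column 4, where Lamp3 missed the threshold at -0.81 (adjusted p = 0.0614), 4 with libraries scaled to the epithelial markers (29.7% of all genes were called on that scale), and 1 to 3 with each library left out. Under BMS493 the number was 3, and it was 6 with the epithelial scaling (58.5% of all genes) and 2 to 7 with each library left out. The 7 were called without B6 BMS493 replicate 1 and added Sftpa1, Sftpb, Abca3 and Lpcat1. The share of all genes called was 22.1% in that fit, and 14.6%, 19.1% and 19.3% without replicate 2, 3 and 4 of the group. Under the epithelial scaling, Lpcat1 under BMS493 changed sign, from -0.17 to 0.28 (adjusted p = 0.0380), as the scaling itself moved the median of all genes by 0.42. Averaged over strains, 0 genes were called for BMS493, and 1, Lamp3, without the filter on low counts (adjusted p = 0.00922), where 487 of all 34971 genes were called. The 5 genes that passed the test of correlation with Sftpc were 3 to 6 with each library left out, the lowest without B6 BMS493 replicate 1. Of the other recomputed values of single genes, 1474 kept their side of the threshold, 24 passed it newly and 16 lost it.

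Replicate numbers do not mark shared litters in the labels, and same-numbered libraries did not deviate together (24 pairs, r of -0.15 to 0.15, 3 over 0.1). With the replicate number as a block, 0 genes were called for BMS493 in B6, in A/J, in their difference and in the average, and 2 between the strains in controls and 2 under BMS493, where Slc34a2 missed the threshold at -2.64 (adjusted p = 0.0547). Between the strains this fit called 2979 of 17276 genes in controls and 3474 under BMS493. Depth limits Slc34a2 (311 counts in all libraries) and Sftpd (7 counts). With 4 libraries a group, intervals of the BMS493 effect in B6 lungs were wide for the surfactant genes.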
